A study of Homo sapiens with 40 samples.

Results

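Replication-dependent histone genes encode the bulk of the histones that package newly made DNA, and their mRNAs are made mainly in S phase. Most of these mRNAs do not end in a poly(A) tail. They end just after a conserved stem-loop, which is bound by SLBP and takes the place of the tail in processing, export, translation and decay. Some of the genes can also give longer, polyadenylated transcripts that run past the stem-loop. All libraries here were made with a kit that selects poly(A) RNA, so the values describe the histone RNA that this selection kept, and not the total amount of histone RNA in the cells.

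The genes were taken by name: symbols that start with HIST1H, HIST2H, HIST3H or HIST4H, with a summed count of at least 100 over the 40 libraries. This gave 36 of 89 such rows. The last gene inside was HIST1H4B with 105 counts and the first gene outside was HIST1H3A with 78. Of the 53 rows below the minimum, 17 were at 0 in every library. The 36 genes held 101926 counts, 99.1% of all counts in the 89 rows. By the encoded histone they were 15 H2B, 7 H2A, 7 H4, 5 H3 and 2 linker H1 genes, and 2 of the H2B genes, HIST2H2BC and HIST2H2BD, are annotated as pseudogenes.

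All samples were HEK293, a human embryonic kidney cell line, and formed 12 groups in 3 experiments. In the first, endogenous eIF4A1, eIF4A2 or DDX6 was immunoprecipitated (IP) from cell lysate and the bound RNA was set against total RNA of the same lysates (n = 3 for each IP and for the total). eIF4A1 is the RNA helicase of the cap-binding complex, eIF4A2 its close paralogue, and DDX6 a helicase of translational repression and decay. All 3 IPs shared the same total RNA libraries, and an IP with a control antibody was not analysed here. In the second, CNOT1, on which the subunits of the Ccr4-Not deadenylase complex assemble, was knocked down by siRNA or a control siRNA was used, and input, subpolysomal (gradient fractions 1 to 5) and polysomal (fractions 6 to 11) RNA was sequenced (n = 4 in each of 6 groups). In the third, total RNA came from cells in which TNRC6A and TNRC6B were knocked down together by siRNA, or from their siRNA controls; both are proteins that link Argonaute to Ccr4-Not (n = 2 each).

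Nothing in the labels says whether replicates came from separate cultures, so p-values measure the spread between these libraries, which may be technical. In bulk RNA, fewer cells that make a transcript and less of it per cell cannot be told apart. Library totals ran from 15353317 to 46018900 counts. Levels are given as CPM, the read count of a gene relative to its library's total, scaled by TMM within each experiment. Of the 6 HEK293 markers, in control input NEFM was at 4570 ± 174 CPM, VIM at 503 ± 23.9, KRT18 at 28.1 ± 2.76, KRT8 at 6.91 ± 0.939 and NES at 3.56 ± 0.452 CPM, and PAX2 was nearly absent at 0.231 ± 0.084 CPM (SD, n = 4). The 5 markers of other cell types summed to 2.5 ± 0.785 CPM in control input and 4.68 ± 0.878 CPM in the IP totals. Nearly all of that was ACTA2, the smooth muscle actin, at 2.45 and 4.59 CPM. PTPRC and COL1A2 were at 0 in both groups, and ALB and CDH5 at 0.00706 to 0.0562 CPM. In the gradient, CNOT1 itself was at 628 to 711 CPM in the control inputs and 36.8 to 41.4 CPM in the CNOT1 siRNA inputs. The polysomal library labelled control replicate 3 held CNOT1 at 28.3 CPM and the one labelled CNOT1 siRNA replicate 3 at 631 CPM, against 470 to 501 CPM and 24 to 31.6 CPM in the other libraries with the same labels. Both were kept under their labels. They enter the shared estimate of the spread in every gradient comparison, so the counts of calls in each of these, and the calls that change, are also given without them. TNRC6A was at 178 and 189 CPM with control siRNA and at 40.5 and 64.7 CPM with TNRC6A/B siRNA, and TNRC6B at 67.6 and 73.1 CPM against 17.7 and 26.3 CPM.

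The stem-loops were read from the genome because they define this class of mRNA. Of the 36 genes, 34 could be placed on GRCh37 in GENCODE release 44, 26 on chromosome 6, 7 on chromosome 1 and 1 on chromosome 12. HIST1H2BG and HIST1H2BF were not placed. The 200 bases after the last sense codon (for the 2 pseudogenes, the gene and the 200 bases after it) were searched on the coding strand for a hairpin of 16 bases, made of a stem of 6 pairs that opens with GG and closes with CC and a loop of 4 bases that opens with T. All 34 placed genes held one, and for the 32 with an annotated coding end 26 to 60 bases, the stop codon included, lay between the last sense codon and the hairpin. The same search found a hairpin in 49 of 4112 other protein-coding genes on these chromosomes (1.19%). A match is a description of the letters and not of use. The examples below show the 16 hairpin bases in capitals with 5 genomic bases on each side, written as DNA from 5′ to 3′.

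HIST1H1C (linker histone, chr6:26055972-26055987, minus strand): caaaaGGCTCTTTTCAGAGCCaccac
HIST1H2AC (H2A, chr6:26124897-26124912, plus strand): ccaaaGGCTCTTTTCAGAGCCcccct
HIST1H2BK (H2B, chr6:27114145-27114160, minus strand): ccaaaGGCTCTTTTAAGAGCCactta
HIST1H2BD (H2B, chr6:26158815-26158830, plus strand): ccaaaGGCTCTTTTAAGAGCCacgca
HIST1H2AG (H2A, chr6:27101294-27101309, plus strand): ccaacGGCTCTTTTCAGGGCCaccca
HIST4H4 (H4, chr12:14923658-14923673, minus strand): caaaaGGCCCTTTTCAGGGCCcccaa
HIST1H4I (H4, chr6:27107433-27107448, plus strand): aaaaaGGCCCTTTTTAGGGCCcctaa
HIST1H3E (H3, chr6:26225824-26225839, plus strand): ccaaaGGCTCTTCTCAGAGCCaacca

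The 34 genes carried 8 different hairpins. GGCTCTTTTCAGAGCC was the most common, in 17 genes, among them both H1 genes, 4 of 7 H2A, 7 of 13 H2B and 4 of 5 H3 genes. All 7 H4 genes had a stem that opens with GGCCC and closes with GGGCC, 6 of them as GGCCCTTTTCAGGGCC and HIST1H4I as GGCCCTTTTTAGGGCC. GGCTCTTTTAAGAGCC was found in 4 genes, all of them H2B: HIST1H2BK, HIST1H2BJ, HIST1H2BD and HIST1H2BC.

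In 14 of the 34 genes the annotated exons went on for 109 to 4551 bases past the hairpin, and in the other 20 they stopped 1 to 23 bases after it. The median summed count was 1413.5 in the 14 extended genes and 226 in the 20 others. Of the 16 genes with the highest mean level in CPM, 13 were extended. The 3 exceptions were HIST1H2BK, HIST1H1C and HIST1H2AG, whose annotated transcripts are single exons of 495, 731 and 493 bases. Longer genes also collect more reads, and the annotation that the authors counted against is not given in the sources used here, so the exons counted may differ from these.

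Counts were concentrated in 1 gene. HIST1H2BK, an H2B gene, held 56.1% of all counts of the 36 genes, and the 10 leading genes held 89.9%. Per kilobase of annotated exon, the mean over the 40 libraries was 97.0 CPM for HIST1H2BK, 6.33 for HIST1H1C, 5.23 for HIST1H2AG, 4.82 for HIST1H2BJ, 3.79 for HIST1H2BD, 2.71 for HIST1H2AC and 1.76 for HIST2H2BE. Of the possible 75-base reads of HIST1H2BK, 61.0% are found once in the genome, so reads could be shared with near copies or lost. The same holds for 4 other genes: HIST2H2BF (39.2%), HIST1H2AI (38.7%), HIST2H2BC (21.3%) and HIST2H2BD (5.3%), and the values of these 5 genes are uncertain for that reason. HIST2H2BC and HIST2H2BD also lie wholly within another annotated gene on the same strand, as does 96.6% of HIST1H3D and 40.3% of HIST1H3J.

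The summed level of the 36 genes was low in every group and differed between the experiments, which were scaled separately. In IP totals it was 76.0 ± 18.6 CPM (SD, n = 3), with 90.5 and 82.6 CPM in replicates 1 and 2 and 55.0 CPM in replicate 3. Control input was at 89.1 ± 10.5 CPM (n = 4), and control RNA of the TNRC6 experiment at 47.7 and 35.7 CPM. For scale, the 12 replication-independent histone genes chosen for comparison summed to 2560 ± 66.3 CPM in control input. Most of these genes make polyadenylated mRNAs throughout the cell cycle. The share of HIST1H2BK in the summed counts was 57.9 to 62.0% in control input, 32.4 to 39.0% in control subpolysomal RNA and 62.0 to 67.7% in control polysomal RNA. The subpolysomal and polysomal ranges did not overlap. Without HIST1H2BK, the summed level was 57.6 ± 4.29 CPM in control subpolysomal and 43.4 ± 6.12 CPM in control polysomal RNA, with 1 polysomal library (52.3 CPM) at the lowest subpolysomal value. With HIST1H2BK the order was the other way, 91.2 ± 6.57 CPM against 122 ± 16.1 CPM. Without control polysomal replicate 3 the polysomal values were 44.3 ± 7.16 CPM without HIST1H2BK, 127 ± 15.3 CPM with it and a HIST1H2BK share of 63.9 to 67.7% (n = 3).

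**Figure D1:**
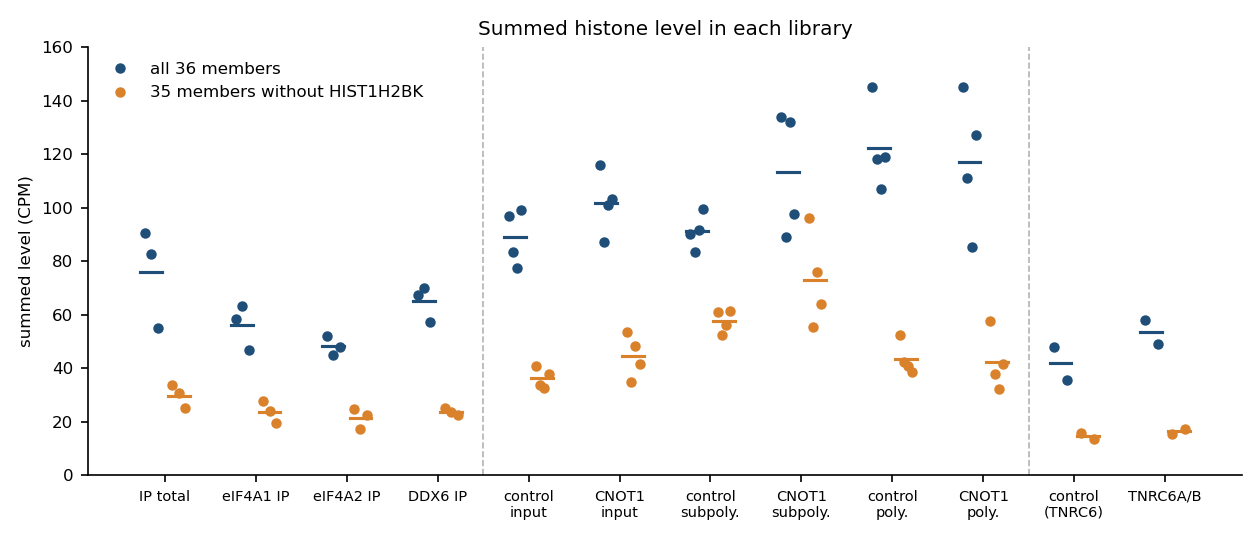
Summed level in CPM (y axis) of all 36 histone genes and of 35 genes without HIST1H2BK in each library, by group (x axis); points are libraries, short lines are means, and dashed lines part the 3 experiments, which were scaled separately. With HIST1H2BK the control polysomal libraries sat at 107 to 145 CPM, above the subpolysomal ones at 83.5 to 99.5 CPM.

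In control cells the histone RNAs were spread over the gradient very unequally. The gradient separates RNA on many ribosomes from RNA on few or none. Linker histone HIST1H1C, HIST1H2BK and HIST1H2AC were higher in polysomal RNA, and 14 genes, led by H4 genes, were higher in subpolysomal RNA. Of 26 genes that passed the filter on low counts, 3 were called higher in polysomal RNA and 14 lower (edgeR quasi-likelihood test, Benjamini-Hochberg FDR below 0.05 over all 16776 genes tested). Over all genes tested 34.8% were called higher and 37% lower. The median log2 fold change was -0.83 over the 26 genes and -0.02 over all genes. The other 10 of the 36 genes had too few counts for the test. Some of the 26, among them HIST1H4I, HIST1H2BF, HIST1H3E and HIST1H2AK, passed the filter mainly through subpolysomal libraries, where they were high. Their low polysomal values were partly fixed by the filter. They enter the medians, counts and ranges given here and for CNOT1 siRNA.

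HIST1H2BK was at 29.2, 31.2, 35.7 and 38.2 CPM in the 4 control subpolysomal libraries and at 92.5, 75.8, 66.5 and 80.8 CPM in the polysomal ones. The groups did not overlap and the log2 fold change was 1.23 ± 0.17 (SE, FDR 3.9e-07). HIST1H1C was at 1.86, 1.36, 3.15 and 3.27 CPM in subpolysomal RNA and at 12.5, 10.2, 7.57 and 8.81 CPM in polysomal RNA. Every polysomal library was above every subpolysomal one, with a log2 fold change of 2.04 ± 0.28 (FDR 5.02e-07). HIST1H2AC was at 3.51 to 4.44 CPM against 5.35 to 7.87 CPM, a log2 fold change of 0.72 ± 0.28 (FDR 0.0225). That call was lost on leaving out control subpolysomal replicate 4 (FDR 0.0545), or control polysomal replicate 1 (0.0613) or 3 (0.052).

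HIST4H4, a lone H4 gene outside the large clusters, gave the lowest ratio. It was at 5.46, 3.5, 3.88 and 4.66 CPM in subpolysomal RNA, from 69 to 141 counts a library, and at 0.386, 0.184, 0.443 and 0.129 CPM in polysomal RNA, from 3 to 11 counts. The log2 fold change was -3.89 ± 0.30 (FDR 3.31e-11). HIST1H4I was at 1.07 to 1.21 CPM in subpolysomal RNA and at 0.116, 0.0922, 0 and 0.301 CPM in polysomal RNA, a log2 fold change of -3.14 ± 0.47 (FDR 2.15e-06) that rests on 0 to 7 polysomal counts a library. HIST1H3E, an H3 gene, had -2.74 ± 0.59, with 0 to 3 polysomal counts.

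All 5 H4 genes tested had negative values and 4 passed: HIST4H4, HIST1H4I, HIST1H4E (-2.46 ± 0.39) and HIST1H4H (-2.22 ± 0.28). HIST1H4C was at -0.60 and did not pass. The 13 H2B genes tested ranged from -2.42 (HIST1H2BF) to 1.23 (HIST1H2BK), with 1 called higher and 7 lower. Among the better counted ones, HIST1H2BN fell from 6.30 to 7.69 CPM in subpolysomal RNA to 2.62 to 3.47 CPM in polysomal RNA (log2 fold change -1.27 ± 0.17, FDR 5.44e-07), and HIST2H2BE had -0.73 ± 0.21 (FDR 0.00267) and HIST1H2BJ -0.69 ± 0.25 (FDR 0.0145; 0.0519 without control subpolysomal replicate 1). The HIST2H2BF call (-1.54 ± 0.55) was lost without control subpolysomal replicate 4 (FDR 0.0783). HIST1H2BD had 0.52 (FDR 0.0959). The 4 genes with the hairpin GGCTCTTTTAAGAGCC had values on both sides of 0, with HIST1H2BC at -0.19. The 5 H2A genes ranged from -2.46 (HIST1H2AK) to 0.72, and HIST1H2AG, at 3.32 to 7.48 CPM against 1.17 to 2.78 CPM, had -1.48 ± 0.25.

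Genes of both exon classes were called in both directions. The median log2 fold change was -0.83 for 14 extended genes, with 1 called higher and 9 lower, and -0.56 for 10 genes that end at the hairpin, with 2 called higher and 4 lower. For the 20 genes with at least 80% unique 75-base reads the median was -0.71, with 2 higher and 11 lower. Without the polysomal libraries numbered 3 the counts were again 3 and 14, with all 17 calls shared, against 33.9% and 38.7% of all genes, and the median was -0.74 against -0.09.

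**Figure D2:**
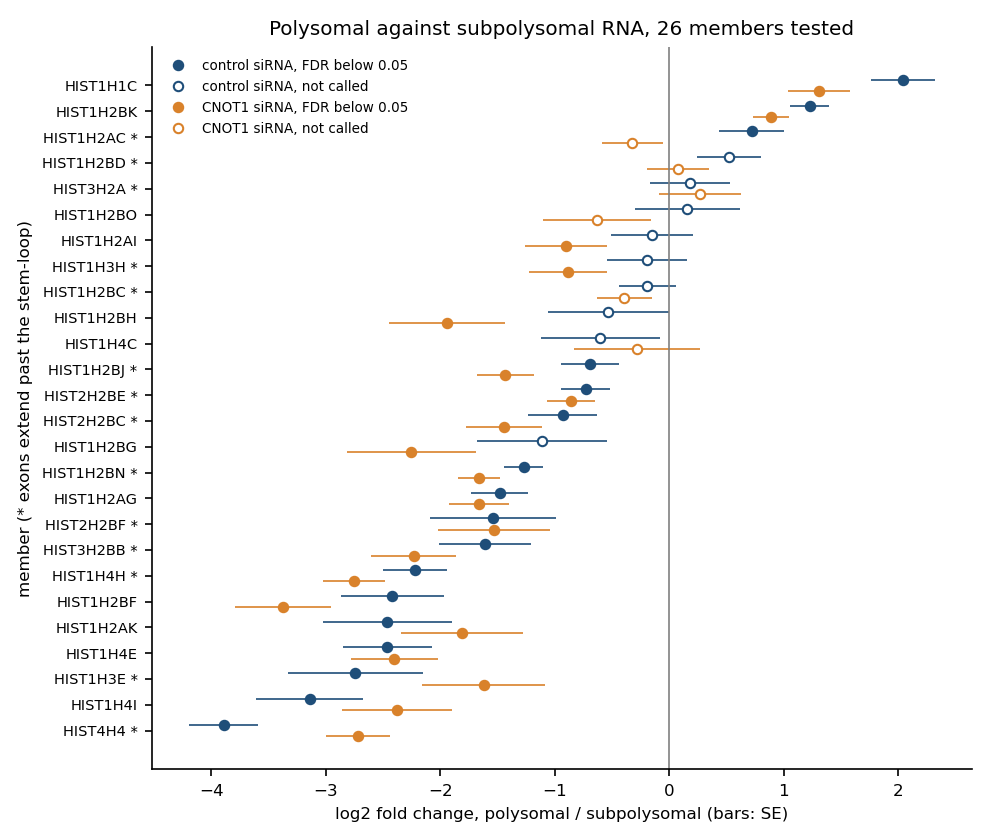
Log2 fold change of polysomal over subpolysomal RNA (x axis, bars are standard errors) for the 26 histone genes tested (y axis, ordered by the control value), with control siRNA in blue and CNOT1 siRNA in orange; filled points passed FDR below 0.05 and asterisks mark genes with exons past the hairpin. Values ran from -3.89 (HIST4H4) to 2.04 (HIST1H1C) with control siRNA.

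Other gene groups had other distributions in the same control libraries. Of 10 replication-independent histone genes tested, 9 were called higher in polysomal RNA and none lower by edgeR, with a median log2 fold change of 1.47; H2AFZ, which encodes the variant H2A.Z, had 1.97 and H3F3B, which encodes H3.3, 1.98. Of 16 S phase genes, 14 were called higher (median 1.05), led by PCNA, the replication clamp, at 1.82. Of 10 other RNAs without a poly(A) tail tested, such as 7SK, 7SL and the RNase MRP RNA, all 10 were called lower, with a median of -6.52 and a range of -8.74 (RMRP) to -3.93 (SNORD3A). The histone median lay between those of these lists, and no test of one list against another was run. With the polysomal libraries numbered 3 left out, 10 of the 10 replication-independent histone genes (median 1.60) and 14 of the 16 S phase genes (1.05) were called higher, and the 10 RNAs without a poly(A) tail lower (-6.44). The summed level of the 14 listed RNAs without a poly(A) tail was 253 to 863 CPM in control subpolysomal and 2.58 to 6.36 CPM in control polysomal RNA. Their part in the histone result was not tested.

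Of 23 factors that act in histone mRNA transcription, processing or decay, 11 were called higher in polysomal RNA and 6 lower, with a median of 0.31. SLBP, the stem-loop binding protein, was at 64.3 to 80.8 CPM in subpolysomal and 155 to 189 CPM in polysomal RNA, a log2 fold change of 1.23 ± 0.10. NPAT, a coactivator of histone gene transcription, had -0.57 ± 0.15 (FDR 0.00194). LSM10, a subunit of the U7 particle that processes the stem-loop end, had the largest called value, -2.52 ± 0.18. The factors gave 10 higher and 7 lower (median 0.16) without the polysomal libraries numbered 3, with SLBP at 1.19 ± 0.09, NPAT at -0.79 ± 0.13 and LSM10 at -2.38 ± 0.15.

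After CNOT1 siRNA, HIST1H1C and HIST1H2BK were again higher and most other histone genes lower in polysomal RNA. Of the 26 genes, 2 were called higher in polysomal RNA and 18 lower, against 34.1% and 34.7% of all genes, and the median log2 fold change was -1.48 against -0.01 over all genes. HIST1H1C had 1.31 ± 0.27 and HIST1H2BK 0.89 ± 0.16. HIST1H2BF, an H2B gene, had the lowest value, -3.37 ± 0.42, from 8 to 27 subpolysomal and 1 to 2 polysomal counts a library. It passed the filter mainly through subpolysomal libraries, so its low value was partly fixed by the filter. HIST1H4H (-2.75 ± 0.27) and HIST4H4 (-2.72 ± 0.28) followed. HIST1H2BK was at 33.6 to 55.9 CPM in subpolysomal RNA and 53.3 to 87.3 CPM in polysomal RNA. Those ranges overlapped through 1 library each, the polysomal library labelled replicate 3 and subpolysomal replicate 3. The calls for HIST1H3H (-0.88) and HIST1H2AI (-0.90) were each lost when single libraries were left out (FDR up to 0.105 and 0.0898). Without the polysomal libraries numbered 3 the counts were 2 and 18 again, against 36.3% and 36.1% of all genes, and the median was -1.56 against 0.

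The pseudogene row HIST2H2BD had 0 counts in all 4 polysomal libraries labelled CNOT1 siRNA, and it did not pass the filter. It was at 0.203 to 0.403 CPM in the subpolysomal libraries of that siRNA.

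Whether the siRNA changed the distribution was tested as the difference between its effects in polysomal and subpolysomal RNA. With edgeR no histone gene passed in either direction (0 of 26), against 3.26% of all genes called higher and 2.4% lower. The median difference was -0.41 over the histone genes and 0.05 over all genes, with 18 of the 26 below 0 and 9 of the 10 leading genes below 0. These counts only describe the signs. The share of all genes below 0 is not given, and genes of the same libraries are not independent. An unadjusted p below 0.05 was found for 3 histone genes, HIST1H2BJ (-0.73 ± 0.35), HIST1H2AC (-1.05 ± 0.38, FDR 0.106) and HIST4H4 (1.18 ± 0.44, FDR 0.112). DESeq2 called 1 lower, HIST1H2AC (-1.09, adjusted p 0.0403). Without the polysomal libraries numbered 3, edgeR called HIST4H4 higher (1.46 ± 0.50, FDR 0.0477) and none lower (3 had an unadjusted p below 0.05 in either direction), against 10.3% and 7.64% of all genes, and the median was -0.37 against 0.07.

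In input RNA, CNOT1 had a log2 fold change of -4.08 ± 0.81 (FDR 0.00673) after its siRNA, and 2 core histone genes, HIST1H2BD and HIST1H2AC, rose. HIST1H2BD was at 2.7, 2.36, 2.62 and 2.96 CPM with control siRNA and at 7.44, 4.42, 5.54 and 5.53 CPM with CNOT1 siRNA. The groups did not overlap, with a log2 fold change of 1.10 ± 0.27 (FDR 0.0079). HIST1H2AC was at 5.61, 3.29, 3.64 and 4.18 CPM against 9.86, 5.3, 8.68 and 6.37 CPM, a log2 fold change of 0.85 ± 0.27 (FDR 0.0217), and the ranges overlapped by 1 library on each side. Its FDR was 0.0604 to 0.0757 when any of control input replicates 2 and 3 or CNOT1 siRNA input replicates 1 and 3 was left out. Both genes have annotated exons that run past the hairpin.

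Of the 26 genes, 2 were called higher and 0 lower by edgeR, with 5 at an unadjusted p below 0.05 in either direction. Over all genes 13.4% were called higher and 15.6% lower. DESeq2 called 3 higher and 1 lower, the last being HIST1H4I. The median log2 fold change was 0.12 over the histone genes and -0.03 over all genes. HIST1H2BK, at 44.8 to 61.5 CPM against 52.3 to 62.6 CPM, had 0.11 ± 0.16 (FDR 0.616), and HIST1H1C had 0.03 ± 0.25. Pairing the libraries by replicate number added HIST3H2BB as higher (0.99 ± 0.33, FDR 0.0301; 0.0546 without pairing). Without the polysomal libraries numbered 3, which enter this fit through the shared spread, 3 genes were called higher and 2 lower, against 19.8% and 21.5% of all genes. The added calls were HIST3H2BB (0.99 ± 0.38, FDR 0.0425), HIST1H4I (-1.28 ± 0.46, FDR 0.0295) and HIST2H2BC (-0.67 ± 0.25, FDR 0.0326), and CNOT1 had -4.08 ± 0.11. The summed level was 89.1 ± 10.5 CPM with control siRNA and 102 ± 11.9 CPM with CNOT1 siRNA, with overlapping ranges.

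In subpolysomal RNA, CNOT1 itself had -1.79 ± 0.74 (FDR 0.065), and HIST1H2AC was again higher with CNOT1 siRNA. It was at 4.15, 3.77, 4.44 and 3.51 CPM with control siRNA and at 12.5, 6.43, 11.3 and 6.38 CPM with CNOT1 siRNA, with no overlap and a log2 fold change of 1.21 ± 0.28 (FDR 0.00202). HIST1H2BJ was at 6.58 to 9.45 CPM against 8.53 to 17.8 CPM, with overlap, and had 0.65 ± 0.24 (FDR 0.0394). Its FDR was 0.0611 to 0.191 without any of control replicates 2, 3 and 4 or CNOT1 siRNA replicates 1 and 3, and without CNOT1 siRNA replicate 1 the value was 0.42. HIST1H2BD had 0.71 ± 0.28 (FDR 0.0528), and 0.67 ± 0.26 (FDR 0.0479) when paired by number. Without the polysomal libraries numbered 3, HIST1H2BD (0.71 ± 0.21, FDR 0.0109) and HIST1H2BF (0.79 ± 0.30, FDR 0.0388; 0.0523 with them) were called higher too, and CNOT1 had -1.79 ± 0.10 (FDR 1.1e-10).

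Of the 26 genes, 2 were called higher and 0 lower by edgeR (8 had an unadjusted p below 0.05), against 13% and 19.1% of all genes. DESeq2 called 4 higher and 0 lower. So did edgeR without the polysomal libraries numbered 3, against 17.9% and 24.9% of all genes. The median log2 fold change was 0.22 over the histone genes and -0.07 over all genes. S phase genes in the same libraries gave 1 called higher and 8 lower of 16, with a median of -0.33. Of 10 replication-independent histone genes, 3 were called higher and 0 lower by edgeR, led by CENPA, the centromeric H3 variant (0.80 ± 0.16). These lists gave 1 higher and 11 lower, and 4 higher and 2 lower, without the polysomal libraries numbered 3.

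In polysomal RNA, CNOT1 itself had -1.05 ± 0.72 (FDR 0.677) with the libraries as labelled. There edgeR called 0 of the 26 genes higher and 0 lower, and 0% of all genes in either direction. No histone gene had an unadjusted p below 0.05, and DESeq2 called none. HIST1H2BD was at 4.48, 3.18, 6.4 and 4.34 CPM in the libraries labelled control and at 7.19, 5.76, 2.56 and 6.67 CPM in those labelled CNOT1 siRNA. The libraries numbered 3 were the highest of the first group and the lowest of the second. Without those 2 libraries, CNOT1 had -4.10 ± 0.13 (FDR 3.24e-16), and 17.5% of all genes were called higher and 15% lower. In that fit HIST1H2BD was called higher (0.71 ± 0.24, FDR 0.0267) and the pseudogene row HIST2H2BC lower (-1.23 ± 0.37, FDR 0.023), 1 of 26 in each direction.

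**Figure D3:**
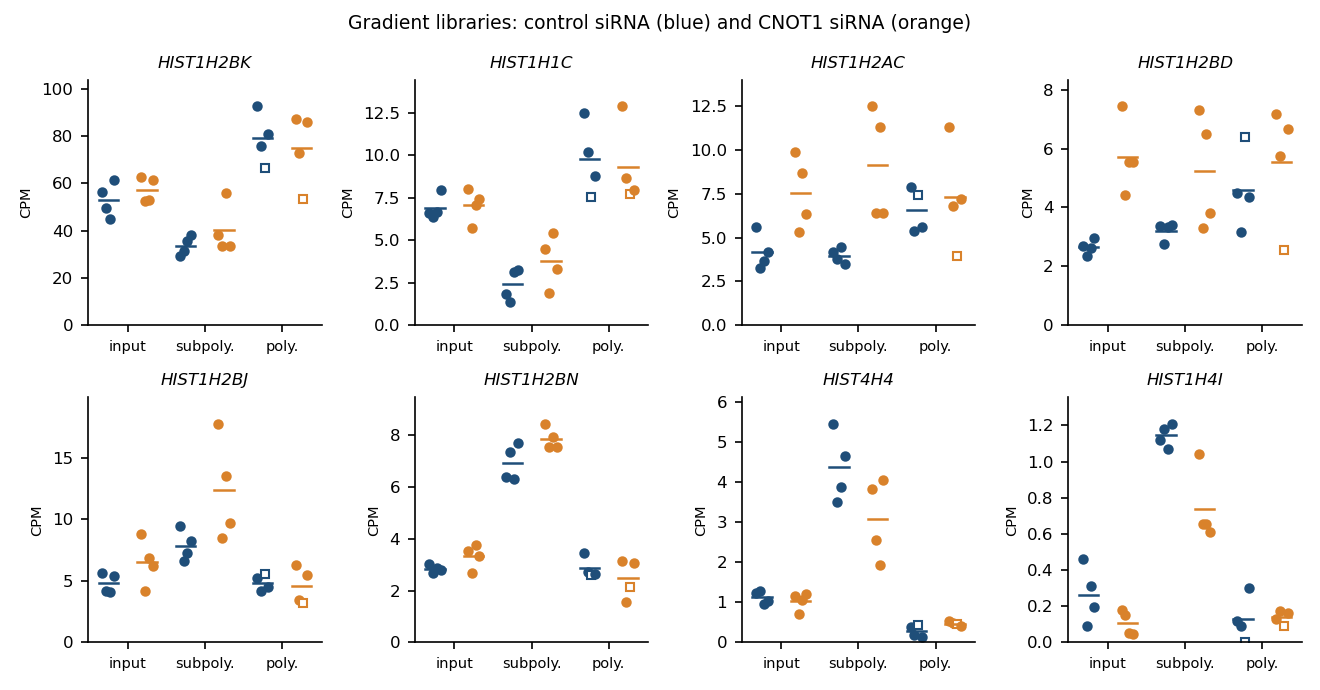
Level in CPM (y axis, from 0) of 8 histone genes in the gradient experiment, by RNA fraction (x axis), with control siRNA in blue and CNOT1 siRNA in orange; points are libraries, lines are means, and open squares are the polysomal libraries numbered 3, whose CNOT1 level goes against their labels. HIST1H2BK and HIST1H1C were higher in polysomal RNA, while HIST1H2BN, HIST4H4 and HIST1H4I were higher in subpolysomal RNA.

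Among the histone mRNA factors, NCBP2, a cap-binding subunit, had the largest called value in input RNA after CNOT1 siRNA (-0.96 ± 0.21), with 1 factor called higher and 2 lower of 23. LSM11, which pairs with LSM10 in the U7 particle, had the largest called value in subpolysomal RNA (-0.93 ± 0.18), with 2 higher and 6 lower. SLBP had 0.17 ± 0.10 in input RNA (FDR 0.183) and -0.19 ± 0.10 in subpolysomal RNA (FDR 0.135). MIF4GD, the partner of SLBP in translation, was the 1 factor that passed the test of the difference between fractions (-0.69 ± 0.20, FDR 0.042). None passed in polysomal RNA (edgeR). When the polysomal libraries numbered 3 were left out, 4 factors were called higher and 2 lower there, SLBP among the higher (0.26 ± 0.10, FDR 0.0468). In the test of the difference 4 were then called higher and 2 lower, among them SLBP (0.45 ± 0.13, FDR 0.0182), NPAT (0.66 ± 0.18, FDR 0.0119) and MIF4GD (-0.84 ± 0.19, FDR 0.00297).

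In the immunoprecipitates, linker histone HIST1H1C, HIST4H4 and the H2A genes HIST1H2AH and HIST1H2AI were called lower than in total RNA in all 3 IPs. HIST1H2AH had 10 to 13 counts in the totals and 2 to 8 in the IP libraries. HIST1H2AI had 11 to 23 and 5 to 10. Both passed the filter on low counts mainly through the totals, so their lower calls were partly fixed by the filter. Few histone genes were called higher. The IP question was which RNAs are bound more or less than their abundance predicts, so values are relative to the other RNAs in each library. HIST1H1C was at 4.39, 3.71 and 3.37 CPM in the totals, at 0.934, 1.18 and 0.918 CPM in the eIF4A1 IP, at 1.14, 0.849 and 0.59 CPM in the eIF4A2 IP and at 1.54, 1.32 and 0.547 CPM in the DDX6 IP. Every IP library was below every total. The log2 fold changes were -1.92 ± 0.32 (FDR 0.000243), -2.18 ± 0.33 (FDR 0.000125) and -1.76 ± 0.31 (FDR 0.000615).

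HIST4H4 was at 1.32, 0.912 and 1.9 CPM in the totals and at 0.268 to 0.658 CPM in the 9 IP libraries, from 8 to 29 counts each. The log2 fold changes were -1.67 ± 0.34 for eIF4A1, -1.61 ± 0.35 for eIF4A2 and -1.61 ± 0.34 for DDX6. These comparisons share their 3 totals and are not independent of each other.

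In the eIF4A1 IP, 1 of 25 histone genes tested was called higher and 6 lower, against 26.1% and 26.5% of all 17474 genes. The median log2 fold change was -0.52 over the histone genes and 0.04 over all genes. The gene called higher was HIST2H2BE, an H2B gene of the chromosome 1 cluster, at 2.68, 2.19 and 1.97 CPM in the totals and 4.15, 3.07 and 3.08 CPM in the IP (0.58 ± 0.21, FDR 0.0359). Its FDR was 0.0932, 0.113 and 0.145 without total replicate 2, total replicate 3 or eIF4A1 IP replicate 1. Besides HIST1H1C and HIST4H4, the genes called lower were HIST1H2AI (-1.61), HIST1H2AH (-1.60), HIST1H4E (-1.19) and HIST1H3H (-1.02). The last 2 calls were each lost when single libraries were left out (FDR up to 0.0858 and 0.134), and that of HIST1H4E also with DESeq2 (adjusted p 0.0552). The other 11 of the 36 genes had too few counts in this experiment. Pairing by replicate number raised the 6 lower calls to 10, adding HIST1H2BK (-0.50 ± 0.14, FDR 0.00727; 0.0559 without pairing), HIST2H2AC, HIST3H2A and HIST3H2BB. The shares of all genes called with pairing were not recorded for any IP, so the paired counts cannot be set against them.

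In the eIF4A2 IP, 2 genes were called higher and 8 lower, against 24.5% and 25.8% of all genes, with a median of -0.53 against 0.01. HIST1H2BK was at 57, 51.9 and 30.1 CPM in the totals and 27.5, 28 and 25.2 CPM in the IP. All IP values were below all totals, with a log2 fold change of -0.79 ± 0.21 (FDR 0.0077). HIST1H2AH, an H2A gene, had the lowest value, -2.20 ± 0.46, from 10 to 13 counts in the totals and 2 to 4 in the IP, and HIST3H2A had -1.72 ± 0.39. The pseudogene row HIST2H2BC had 1.23 ± 0.41 (FDR 0.0237). Only 21.3% of its possible 75-base reads are unique and it lies wholly within another annotated gene, so this value is uncertain. HIST1H4I, at 0.152 to 0.237 CPM in the totals and 0.333 to 0.436 CPM in the IP, had 0.99 ± 0.37 (FDR 0.0366). The HIST1H4I value rests on 5 to 9 and 11 to 17 counts a library, and with DESeq2 its adjusted p was 0.107. HIST1H4I passed the filter on low counts mainly through the eIF4A2 IP, so its higher call was partly fixed by the filter. Without the filter its FDR was 0.121 (edgeR). The call was also lost without any of total replicates 2 and 3 or eIF4A2 IP replicates 1 and 3 (FDR 0.0738 to 0.116). The HIST2H2BC call was lost without any of total replicates 1 and 2 or eIF4A2 IP replicates 1 and 3 (FDR 0.0646 to 0.0851). The other genes called lower were HIST1H1C, HIST4H4, HIST1H3H, HIST1H2AI and HIST3H2BB, the last 3 losing the call without 1 or another library (FDR up to 0.0692). Pairing by number added HIST2H2BE as higher (0.52 ± 0.16, FDR 0.0122) and HIST1H2BO and HIST2H2AC as lower.

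In the DDX6 IP, edgeR called 0 of 25 genes higher and 7 lower, against 22.7% and 23.3% of all genes, with a median of -0.58 against 0.01. In either direction 10 genes had an unadjusted p below 0.05, and DESeq2 also called 0 higher and 7 lower. The genes called lower, besides HIST1H1C and HIST4H4, were HIST2H2AC (-1.80 ± 0.69), HIST1H2AH (-1.60), HIST1H4E (-1.52), HIST1H2AI (-1.49) and HIST2H2BF (-0.81). The HIST2H2AC groups overlapped, and its call was lost when single libraries were left out (FDR up to 0.171) and with DESeq2 (adjusted p 0.0527). The HIST2H2BF call was lost without any 1 of the 6 libraries (FDR 0.0584 to 0.192). HIST1H2BK had -0.17, at 35 to 46.4 CPM, within the range of the totals. Pairing by number added HIST2H2BE as higher (0.43 ± 0.16, FDR 0.0307) and HIST1H2BO and HIST1H3H as lower.

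**Figure D4:**
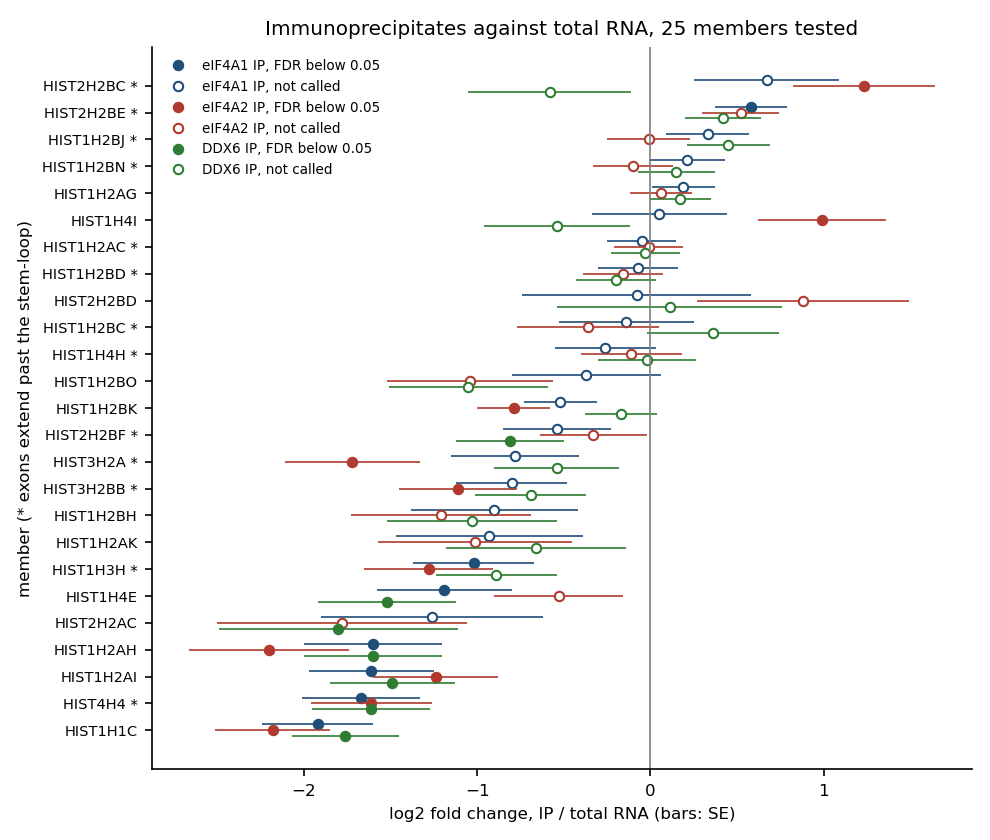
Log2 fold change of each IP over the shared total RNA (x axis, bars are standard errors) for the 25 histone genes tested (y axis, ordered by the eIF4A1 value), with eIF4A1 in blue, eIF4A2 in red and DDX6 in green; filled points passed FDR below 0.05 and asterisks mark genes with exons past the hairpin. HIST1H1C, HIST4H4, HIST1H2AH and HIST1H2AI passed below 0 in all 3 IPs. The pseudogene row HIST2H2BC and HIST1H4I passed above 0 in the eIF4A2 IP, and both calls were lost without single libraries. HIST1H2AH and HIST1H2AI passed the filter on low counts mainly through the totals, and HIST1H4I mainly through the eIF4A2 IP.

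Without pairing, the counts of histone genes called lower, 6, 8 and 7 of 25, were near the shares called lower over all genes. The counts called higher, 1, 2 and 0 of 25, were below the shares called higher over all genes, 26.1%, 24.5% and 22.7%. In each IP most of the 25 did not pass without pairing. Pairing by number added lower calls in each IP, and a higher call in the eIF4A2 and DDX6 IPs. Of the 16 S phase genes, 12 were called lower and 2 higher in the eIF4A1 IP, 13 and 2 in the eIF4A2 IP, and 12 and 2 in the DDX6 IP. Of the 6 HEK293 markers, 5 were called lower in each IP, and their summed level was 3940 to 5600 CPM in the totals and 310 to 1930 CPM in the IPs. The 14 RNAs without a poly(A) tail summed to 40.1 to 173 CPM in the totals and 19.0 to 31.7 CPM in the IPs. Most of the sum in the totals was RN7SL1, a 7SL RNA, at a mean of 80.1 CPM there and 3.0 to 3.91 CPM in the IPs. Of the 6 tested, 2, 1 and 2 were called higher in the eIF4A1, eIF4A2 and DDX6 IPs, and 3 lower in each. SNORD17 was called higher in all 3 IPs (log2 fold change 1.99, 2.1 and 2.25). The part of these RNAs in the histone values was not tested. Among the 13 extended histone genes tested the median log2 fold change was -0.14, -0.16 and -0.20 in the eIF4A1, eIF4A2 and DDX6 IPs, and among the 12 that end at the hairpin it was -0.91, -1.03 and -1.04. This difference between the classes was not tested, and the classes also differ in length and depth. The class that ends at the hairpin also holds HIST1H2AH and HIST1H2AI, which passed the filter on low counts mainly through the totals. Its median is therefore partly set by the filter. The largest called values among the histone mRNA factors were those of CPSF3, the nuclease that cuts at the stem-loop end (-1.67 ± 0.14, eIF4A1), CSTF2, a cleavage factor subunit (-1.71 ± 0.13, eIF4A2), and SRRT, a partner of the cap-binding complex (-1.23 ± 0.30, DDX6). SLBP had 0.20, 0.06 and 0.24 and passed in none.

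Directly between IPs, few histone genes were called. For eIF4A2 against eIF4A1, edgeR called 0 of 25 higher and 0 lower (2 had an unadjusted p below 0.05, and DESeq2 called 0), against 0.973% and 0.0858% of all genes, and the median was -0.13 against -0.02. For eIF4A2 against DDX6, 2 were called higher and 1 lower, against 9.82% and 11.3% of all genes. The pseudogene row HIST2H2BC, uncertain for its few unique reads, was at 1.11, 0.485 and 0.93 CPM in the eIF4A2 IP. In the DDX6 IP it was at 0.294, 0.149 and 0.263 CPM (1.81 ± 0.42, FDR 0.0109). HIST1H4I was at 0.436, 0.333 and 0.386 CPM against 0.204, 0.0993 and 0.0876 CPM (1.53 ± 0.37, FDR 0.0129). HIST1H4I passed the filter on low counts mainly through the eIF4A2 IP, so this call was partly fixed by the filter. Neither group pair overlapped, and both FDRs rose above 0.05 without DDX6 IP replicate 2 (0.0521 and 0.0575). HIST3H2A was lower (-1.18 ± 0.39, FDR 0.0484), and that call was lost on leaving out any 1 library. Pairing by number added HIST1H2BK as lower (-0.60 ± 0.14, FDR 0.00451; 0.056 without pairing). COIL, the coilin of Cajal bodies, had the largest called value among the factors (-0.64 ± 0.14).

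After TNRC6A/B siRNA, edgeR called 0 of 11 histone genes tested higher and 0 lower, as for all 14064 genes (0% in either direction). None had an unadjusted p below 0.05 and DESeq2 called none. HIST1H2BK was at 31.9 and 22.1 CPM with control siRNA and 42.6 and 31.6 CPM with TNRC6A/B siRNA, overlapping ranges with a log2 fold change of 0.46 ± 0.31. The median over the 11 genes was 0.27, and over all genes -0.03. The siRNA targets themselves had -1.80 (TNRC6A) and -1.68 (TNRC6B) and did not pass either (FDR 1.0 for both).

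Over the 12 group means, the 3 other genes whose log2 CPM was most like the summed histone level were MIER1 (Pearson r = 0.953), RPL7L1 (0.952) and DCUN1D1 (0.948), out of 9692 genes with a mean of at least 10 CPM. The groups differ in experiment and fraction, so this is a description of 12 points and no test was made.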

How the data were processed

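The authors selected poly(A) RNA (TruSeq Stranded mRNA), aligned reads to hg19 with TopHat2 and deposited raw counts per gene symbol from htseq-count; versions and the annotation are not given in the sources used here. Members and gene lists were chosen with earlier results of these data known. Counts of each experiment were filtered with filterByExpr, scaled by TMM and tested with edgeR 4.0.16 (R 4.3.3, limma 3.58.1; quasi-likelihood, Benjamini-Hochberg over all genes), all groups of an experiment sharing 1 estimate of the spread. The standard error is the log2 fold change divided by the square root of F. The code was tested on simulated data. Each result was recomputed with DESeq2 1.42.0, without the filter, with RLE factors, with only the compared libraries, with a replicate block, and with each library left out and both polysomal libraries numbered 3 left out. Of these, shares over all genes were recorded only without both polysomal libraries numbered 3 and for the TNRC6 block. The DESeq2 and other counts therefore have no such share beside them. Deviations of libraries with the same number correlated (r 0.184 to 0.736) in the IP, input and subpolysomal comparisons, so numbers pair those. Comparisons with polysomal RNA, with the libraries numbered 3 included, did not meet this rule. The 2 TNRC6 pairs (r 0.862) are too few for it. In the study both pools were taken from the same gradients, so polysomal and subpolysomal libraries may still be matched. The main tests did not use pairing. Named were the 10 members with the highest mean CPM, the 2 largest increases and decreases called per comparison and genes whose call changed; others named were chosen after their values were seen. Hairpins were read from GRCh37.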

Additional observations from a re-analysis of the deposited data

Results flagged for a closer look

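Among 66 groups of 4 libraries checked for the leading genes, 3 held a library far from the other 3, where chance flags about 1 group in 20. The 3 flags are thus about as many as chance would give. HIST2H2BE was at 3.69 CPM in CNOT1 siRNA input replicate 1, against 2.67, 2.78 and 2.82 CPM. HIST1H2BN was at 3.47 CPM in control polysomal replicate 1, against 2.62, 2.66 and 2.72 CPM. HIST1H2BD was at 2.77 CPM in control subpolysomal replicate 2, against 3.32, 3.37 and 3.39 CPM. Groups of 2 or 3 libraries were not checked.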

How the results depend on the processing

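Of the counts of called histone genes under the alternatives, 262 stayed within 1.5 times the reported count and 48 did not; no named value changed sign, and 72 values lost their call. The mean summed level of the eIF4A2 IP moved from 48.3 to 53.1 CPM when scaled by the raw library total, and a minimum of 1000 counts left 11 of the 36 genes. The polysomal against subpolysomal counts moved in none of them. With the replicate block, lower calls were 10 for the eIF4A1 IP, 2 for eIF4A2 against DDX6 and 1 for the difference between fractions, and higher calls 1 for the DDX6 IP. The numbers did not pair libraries in comparisons with polysomal RNA, with the libraries numbered 3 included. The lowest r, -0.562, was between the 2 polysomal libraries numbered 3, whose CNOT1 levels go against their labels. In the TNRC6 experiment both pairs had r 0.862, which is 1 value since deviations within groups of 2 mirror each other; with the block, 0 of 11 histone genes passed in either direction by edgeR (1 had an unadjusted p below 0.05), against 3.7% of all genes higher and 1.73% lower. HIST1H2BK, higher in both pairs, then had 0.46 ± 0.17 (FDR 0.101), TNRC6A -1.84 ± 0.17 and TNRC6B -1.70 ± 0.17 (FDR 1.06e-24 and 5.21e-19). Without the filter there was 1 higher call for eIF4A2, 1 lower for eIF4A2 against eIF4A1 (HIST3H2A), 2 lower for eIF4A2 against DDX6, 5 higher for CNOT1 siRNA in subpolysomal RNA and 2 lower for the difference between fractions. With DESeq2 there was 1 higher call for eIF4A2, 2 lower for eIF4A2 against DDX6, 1 lower in input, 4 higher in subpolysomal RNA and 1 lower for the difference. With only the compared libraries there were 2 lower calls for eIF4A2 against DDX6, 4 higher and 2 lower in input and 1 higher in subpolysomal RNA. Without the polysomal libraries numbered 3 there were 2 lower calls in input, 4 higher in subpolysomal RNA, 1 higher and 1 lower in polysomal RNA and 1 higher for the difference. Leaving out single libraries gave 0 to 1 higher calls for eIF4A1, 0 to 3 for eIF4A2, 0 to 3 higher and 0 lower for eIF4A2 against DDX6, 1 to 3 higher and 0 to 1 lower in input, 1 to 6 higher in subpolysomal RNA, and 0 to 1 in either direction for the difference. The cause was not tested.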
